A study of Homo sapiens with 6 samples.

Results

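The genes described here are 10 immediate early genes, FOS, FOSB, FOSL1, FOSL2, JUN, JUNB, JUND, EGR1, EGR3 and ATF3, taken by name from the 47470 genes listed in the count tables. HEK293T cells, which derive from human embryonic kidney and express SV40 large T antigen, gave 3 untreated RNA-seq libraries and 3 libraries of cells given valproic acid (VPA), an inhibitor of class I and class IIa histone deacetylases, at 1 mM for 1 day. Both groups are the same line, labelled wild type where untreated, so that 1 dose and 1 time in 1 line were compared, and earlier time points were not analysed here. The labels do not state whether the libraries of a group came from separate cultures, and p-values measure the spread between these libraries, which may be technical.

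Immediate early genes are switched on within minutes of a growth factor, stress or calcium signal from transcription factors that are already in the cell, and their transcripts decay quickly. The FOS and JUN proteins pair through leucine zippers to form the AP-1 transcription factor. JUN proteins can pair with each other, whereas FOS proteins need a JUN partner. The EGR proteins are zinc finger factors that bind GC-rich sites and are held in check by the corepressors NAB1 and NAB2. ATF3 is a stress-induced factor that pairs with JUN proteins or with itself.

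Counts on genes totalled 18622267 to 18828495 per library, so that depth hardly differed between them. Normalized counts below are counts divided by library size after TMM scaling and brought to the mean library. They are compared between libraries, and levels of different genes are compared per kilobase only. Of the 8 HEK293 marker genes examined (KRT8, KRT18, CDH2, VIM, PAX2, LHX1, NEFM and EPCAM), all 8 were tested, and their summed level was 18345 to 18964 normalized counts in untreated and 20342 to 21558 in VPA-treated libraries. In the test described below 6 of the 8 were higher and 2 lower (VIM and CDH2), and the rise of the sum came with NEFM, a neurofilament gene, at 4348 and 7952. Of 12 markers of blood, endothelial, stromal and liver cells, 4 were tested. The sum of the 12 was 453 to 498 normalized counts in untreated and 1289 to 1469 in VPA-treated libraries, most of it the collagen gene COL1A1, whose mean was 433 and 1288. DCN, VWF and COL1A1 rose, but DCN and VWF passed the filter on low counts through the VPA-treated libraries only. DCN, a stromal proteoglycan gene, had 3 counts in all untreated and 133 in all VPA-treated libraries, and VWF, an endothelial gene, had 3 and 50. CD68, a macrophage gene, fell from 36.5 to 15.7 normalized counts (log2 fold change -1.21, adjusted p = 9.97e-05, edgeR). PTPRC, CD3E, CDH5, HBA1 and HBB had a count of 0 in every untreated library. In VPA-treated libraries PTPRC was at 2.87 to 4.79, CDH5 at 0.957 to 2.89 and HBA1 at 1.91 to 4.82 normalized counts, and CD3E and HBB were above 0 in library 3 only. The part of these markers in the results below was not tested. All libraries came from 1 line, and in bulk RNA fewer cells expressing a gene and less RNA per cell cannot be told apart.

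The DNA just upstream of these genes is where serum, calcium and stress signals are known to act, through the CArG box (bound by SRF), the cyclic AMP response element and its core TGACGT (bound by CREB and ATF factors) and variants of the AP-1 site. The promoters of 8 of the 10 genes were matched in RefSeq (GRCh38.p14). Each was taken at the start of the gene's RefSeq record (position 212565407 for ATF3), and other start sites of these genes were not used. The 200 bases before the start site are given for the 5 of them whose RNA passed the test below, so that the elements can be set beside the direction of each gene. They are those of JUN (chr1:58784048-58784247, minus strand), FOSB (chr19:45467796-45467995, plus strand), FOSL2 (chr2:28392658-28392857, plus strand), JUNB (chr19:12791286-12791485, plus strand) and EGR1 (chr5:138465279-138465478, plus strand). They are written 5′ to 3′ on the strand of the gene. Capitals mark, on either strand, TGACGT or TGACATCA, the CArG box, the box TATAAA, the box CCAAT and the site GGGCGG.
JUN: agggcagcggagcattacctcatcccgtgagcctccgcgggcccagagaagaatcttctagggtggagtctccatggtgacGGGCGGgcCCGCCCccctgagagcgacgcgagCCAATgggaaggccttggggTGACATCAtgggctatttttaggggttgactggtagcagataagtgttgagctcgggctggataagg
FOSB: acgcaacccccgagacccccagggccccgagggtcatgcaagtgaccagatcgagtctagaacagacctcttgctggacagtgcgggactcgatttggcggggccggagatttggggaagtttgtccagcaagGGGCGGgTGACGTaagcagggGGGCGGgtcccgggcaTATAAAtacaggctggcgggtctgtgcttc
FOSL2: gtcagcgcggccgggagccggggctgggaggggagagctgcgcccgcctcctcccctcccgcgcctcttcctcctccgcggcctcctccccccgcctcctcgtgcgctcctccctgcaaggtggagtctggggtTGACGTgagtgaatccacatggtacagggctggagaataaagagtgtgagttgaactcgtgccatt
JUNB: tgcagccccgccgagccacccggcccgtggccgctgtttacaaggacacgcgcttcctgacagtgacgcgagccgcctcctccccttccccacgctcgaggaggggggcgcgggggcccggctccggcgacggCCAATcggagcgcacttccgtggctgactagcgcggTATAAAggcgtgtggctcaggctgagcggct
EGR1: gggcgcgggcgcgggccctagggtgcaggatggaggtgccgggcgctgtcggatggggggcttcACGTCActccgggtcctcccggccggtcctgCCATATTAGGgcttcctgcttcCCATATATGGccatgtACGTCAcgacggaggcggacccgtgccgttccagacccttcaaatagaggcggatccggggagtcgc

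Each of these sequences carries a different set of elements. JUN held TGACATCA, the JUN promoter form of the AP-1 site, 67 bases before its start. FOSB and FOSL2 each held 1 TGACGT, at 60 and 66 bases before the start. EGR1 held CArG boxes at 105 and 83 bases and TGACGT on the opposite strand at 136 and 67 bases before the start. JUNB held none of these in the 200 bases shown, but had TATAAA at 31 bases and CCAAT at 67 bases before the start. Over the window of 250 bases before to 50 bases after the start, on both strands, TGACGT was found in 5 of the 8 matched promoters and in 9.64% of 27305 genes. In these shares a gene counted if any of its listed promoters held the element, whereas each of the 8 was read at 1 start only. TGACATCA was in 2 of 8 (JUN and ATF3) and 3.18% of genes, and the full TGACGTCA, which contains TGACGT, was in 1 of 8 (JUND) and 2.25% of genes. TGACTCA, the consensus AP-1 site, was in 1 of 8 (FOSL2, 5 bases after the start) and 6.05% of genes. The CArG box was in 1 of 8 (EGR1) and 1.60% of genes, and TATAAA was in 3 of 8 (FOS, FOSB and JUNB) and 14.0% of genes. CCAAT was in 4 of 8 and 39.7%, and GGGCGG, an SP1 type of site, in 6 of 8 and 48.3%. The EGR sites GCGTGGGCG and GCGGGGGCG were in 0 of 8 and in 0.960% and 6.14% of genes. FOSB and FOSL2, which fell, and EGR1, which rose, all held TGACGT, as did FOS and JUND, which did not pass the test. These matches are descriptions of letters in the window and no measure of binding. Elements more than 250 bases before the start, CArG boxes among them, were not searched.

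The 10 genes moved in both directions after VPA. By edgeR's quasi-likelihood test with Benjamini-Hochberg adjustment over the 15298 genes tested, 4 of the 10 were higher (FOSL1, JUNB, EGR1 and EGR3), 3 were lower (FOSB, FOSL2 and JUN) and 3 did not pass an adjusted p of 0.05 (FOS, JUND and ATF3). Of all tested genes, 32.9% were higher and 30.0% lower by the same rule (5037 and 4591 genes, but 9309 and 841 with scaling by ribosomal protein genes and 6713 and 2372 with library totals). With the added threshold of a log2 fold change of 1 or more in either direction, FOSL1 and EGR3 were called up, against 12.0% of all tested genes, and 0 of the 10 were called down, against 0.503%. DESeq2 also called 0 of the 10 down, and 4 of the 10 were lower at an unadjusted p under 0.05 in edgeR. The VPA-treated libraries lay above every untreated library in 4 genes and below every one in 4, where 34.8% and 31.0% of all tested genes did so. These numbers are near those of all genes and are no result about the set. The median log2 fold change of the 10 was 0.13, beside 0.01 for all tested genes. All 10 passed the filter on low counts, FOSL1 and EGR3 with a minimum of 10 counts throughout the VPA-treated group only, and 8 had at least 10 counts in every library.

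**Figure D1:**
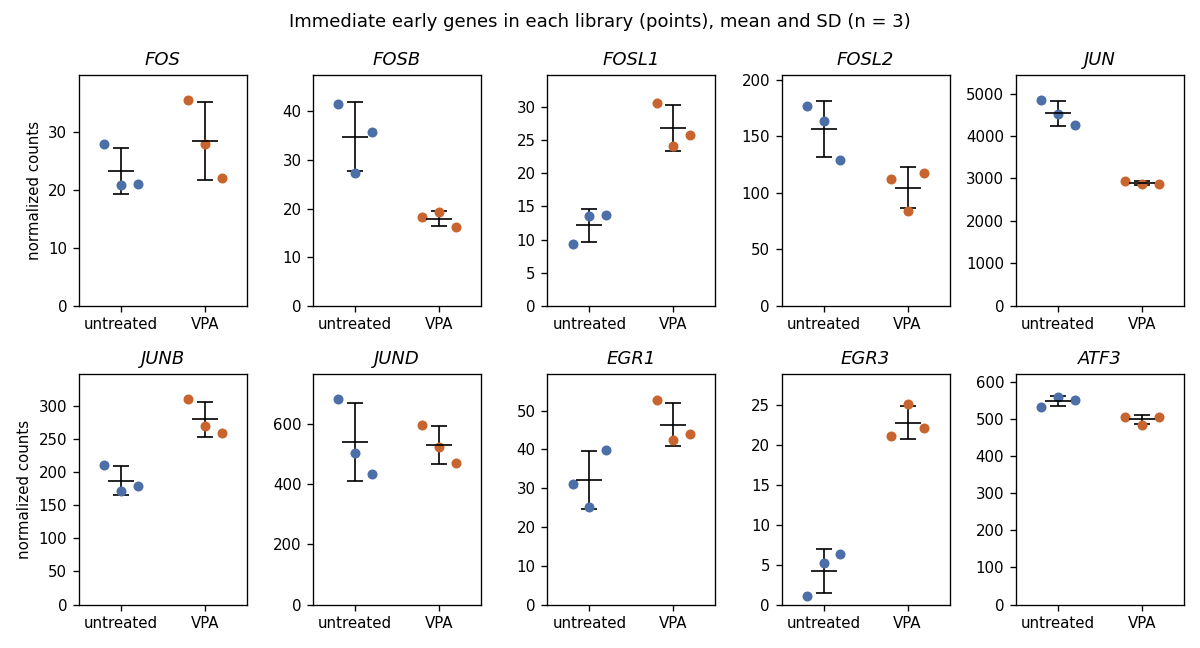
Normalized counts (linear axis from 0) of the 10 genes in each untreated and VPA-treated library (points), with the mean and SD (bars, n = 3 per group). JUN fell from 4253 or more to 2936 or fewer in every library, EGR3 rose from 6.30 or fewer to 21.1 or more, and the groups overlap in FOS and JUND.

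JUN, the founding member of AP-1 and the highest of the 10 per kilobase, had the smallest p of them. It is a single-exon gene on the minus strand of chromosome 1 (58780791 to 58784047). It measured 4847, 4515 and 4253 normalized counts in untreated libraries 1 to 3 and 2936, 2866 and 2866 in the VPA-treated ones. The groups lay well apart, and the VPA-treated libraries spread less (SD 40.7, n = 3) than the untreated ones (SD 298, n = 3). The level fell by 36.3%, a log2 fold change of -0.65 (SE 0.045, adjusted p = 5.38e-11, edgeR). Over the 6 libraries, the tested genes whose log2 levels followed JUN most closely, among 12191 whose mean reached 50 normalized counts, were RRP9, FBXO4 and CHASERR (Pearson r = 0.999 each), which had log2 fold changes of -0.35, -0.40 and -0.54. The 6 libraries fall into the same groups for each of these genes, so r is a description only.

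JUNB, a JUN protein known for its weaker activation and for opposing JUN at some promoters, moved the other way. It is a single-exon gene on chromosome 19 (12791486 to 12793315). It measured 211, 171 and 178 normalized counts in untreated and 309.5, 269 and 259 in VPA-treated libraries. All VPA-treated libraries lay above all untreated ones, and the log2 fold change was 0.58 (SE 0.096, adjusted p = 2.06e-05, edgeR), a rise of 49.4%. HOOK2, a gene on the opposite strand that overlaps JUNB, had a mean of 275 and 322 normalized counts and a log2 fold change of 0.23 (adjusted p = 0.0167, edgeR). The library protocol keeps strand, but the strand setting of the counting is not given in the sources used here, so that shared reads could not be separated.

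JUND, the JUN protein that most cells express steadily, did not differ measurably. It lies on chromosome 19 as a single exon (18279694 to 18281622). It measured 682, 503 and 431 normalized counts in untreated and 596, 522 and 469 in VPA-treated libraries. The ranges overlapped, and the log2 fold change was -0.03 (-0.38 to 0.32 at 2 SE either side, adjusted p = 0.904, edgeR). Its spread was wide for a gene of this level, with a coefficient of variation of 24.0% in the untreated group where counting alone gives 4.31%. Without untreated library 1, the highest, the log2 fold change was 0.17 (adjusted p = 0.0799, edgeR).

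The 4 FOS family genes, which code for the partners of JUN, split in direction. FOS (chromosome 14, 75278828 to 75282230, 4 exons) was low, with 28.0, 20.9 and 21.0 normalized counts in untreated and 35.5, 27.9 and 22.0 in VPA-treated libraries. The ranges overlapped, and the log2 fold change of 0.29 (-0.19 to 0.76 at 2 SE either side, adjusted p = 0.301, edgeR) did not pass, except with ribosomal protein scaling (0.56, adjusted p = 0.0431). Between 20 and 37 reads per library stand behind these values. FOSB (chromosome 19, 45467996 to 45475179, 4 exons), best known for the stable truncated protein that builds up in neurons under repeated stimulation, measured 41.4, 27.2 and 35.7 normalized counts in untreated and 18.2, 19.3 and 16.3 in VPA-treated libraries. It fell by 48.3%, with a log2 fold change of -0.95 (SE 0.23, adjusted p = 0.00115, edgeR) and no overlap between groups. Transcript forms of FOSB were not counted apart. ERCC1, which overlaps FOSB on the opposite strand, had a log2 fold change of 0.06 (adjusted p = 0.429, edgeR).

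The other FOS genes code for the FRA proteins, which lack the strong activation domain of FOS. FOSL1, which codes for FRA-1 (chromosome 11, 65892049 to 65900545, minus strand, 4 exons), was counted 9, 13 and 13 times in untreated and 32, 25 and 27 times in VPA-treated libraries. These are 9.32, 13.6 and 13.6 against 30.7, 24.1 and 25.9 normalized counts, without overlap. The log2 fold change was 1.13 (SE 0.26, adjusted p = 0.000779, edgeR), and the ratio of the summed counts, corrected for library size, was 2.21 with a 95% interval of 1.47 to 3.37 that covers counting error only. Without untreated library 1 the log2 fold change was 0.97, under the fold threshold. FOSL2, which codes for FRA-2 (chromosome 2, 28392858 to 28417317, 4 exons), fell from 177, 163 and 129 to 112, 83.8 and 118 normalized counts. The lowest untreated and highest VPA-treated libraries were close but did not overlap, and the log2 fold change was -0.58 (SE 0.13, adjusted p = 0.000815, edgeR). With scaling by ribosomal protein genes it was -0.31 and did not pass (adjusted p = 0.0598, edgeR). FOSL2 overlaps the antisense gene FOSL2-AS1, listed with 0 counts in all libraries, and an annotated non-coding RNA gene on its own strand that was not analysed here.

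The EGR genes both rose. EGR3, a factor induced in activated neurons and lymphocytes (chromosome 8, 22687659 to 22693480, minus strand, 2 exons), was counted 1, 5 and 6 times in untreated and 22, 26 and 23 times in VPA-treated libraries. These are 1.04, 5.23 and 6.30 against 21.1, 25.0 and 22.0 normalized counts, and the log2 fold change of 2.41 (SE 0.38, adjusted p = 1.17e-05, edgeR) was the largest of the 10. The summed counts of 12 and 71 gave a ratio of 5.44 (95% interval 2.93 to 11.0, counting error only). EGR3 overlaps an annotated non-coding RNA gene on the opposite strand that was not analysed here, and shared reads could not be separated. EGR1, the most widely studied EGR gene (chromosome 5, 138465479 to 138469303, 2 exons), measured 31.1, 25.1 and 39.9 normalized counts in untreated and 52.7, 42.4 and 44.0 in VPA-treated libraries. The highest untreated library lay just under the lowest VPA-treated one. Its log2 fold change of 0.53 (SE 0.20, adjusted p = 0.0218, edgeR) did not keep its call in DESeq2 (adjusted p = 0.165) or without untreated library 1 (0.0509), untreated library 2 (0.128) or VPA-treated library 1 (0.0953) in edgeR.

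ATF3 (chromosome 1, 212565407 to 212620777, 4 exons) stayed close to its untreated level. It measured 533, 561 and 551 normalized counts in untreated and 507, 485 and 506 in VPA-treated libraries. Every VPA-treated library lay below every untreated one, but the difference was -8.95%, and the log2 fold change of -0.14 (SE 0.059, adjusted p = 0.0525, edgeR) did not pass. Its call changed with the scaling and the libraries used. The adjusted p was 0.0276 with the replicate number as a block, 0.0341 with DESeq2 size factors, 0.0463 without the filter and 0.0364 without untreated library 1 (all edgeR), and with scaling by ribosomal protein genes the sign turned, to 0.14 (adjusted p = 0.0495).

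**Figure D2:**
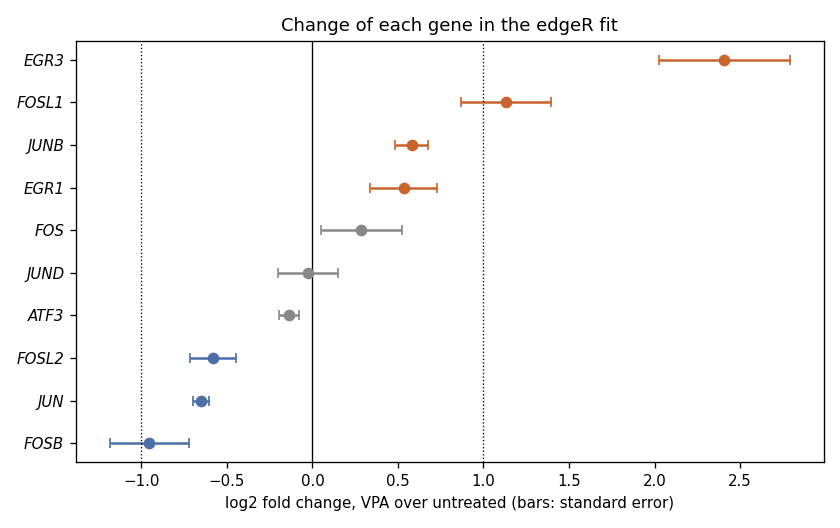
Log2 fold change of VPA-treated over untreated cells for each gene (points, bars are the standard error of the edgeR fit, dotted lines mark a change of 1 in size). Orange genes were higher and blue genes lower at an adjusted p of 0.05, and grey genes did not pass. EGR3 at 2.41 and FOSL1 at 1.13 are past the dotted line, and FOSB at -0.95 is just inside it.

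Levels per kilobase of the canonical transcript (GENCODE 44) show how far apart the 10 genes lie. JUN was highest in both groups, at 1393 normalized counts per kb in untreated and 887 in VPA-treated cells. ATF3 and JUND came next, at 283 and 279 in untreated and 257 and 274 in VPA-treated cells, with overlapping libraries in each group. JUNB was at 102 and 153, below them and above every FOS gene. In untreated cells FOSL2 (23.3) lay above FOS (11.1), EGR1 (10.2), FOSB (9.21) and FOSL1 (7.16), of which each overlapped its neighbour in the order, and EGR3 (0.928) was lowest. In VPA-treated cells FOSL1 (15.8), FOSL2 (15.6), EGR1 (14.8) and FOS (13.5) overlapped in turn, and EGR3 (5.03) and FOSB (4.75) were lowest and overlapped. FOSL1 was thus last but for EGR3 in untreated cells and overlapped FOSL2 after VPA.

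The mixture of transcripts within each family changed while JUN stayed the main JUN gene. As a share of the summed level per kb of the 3 JUN genes, JUN was 78.6% ± 2.28 (SD, n = 3) in untreated and 67.6% ± 2.12 in VPA-treated libraries, JUNB 5.75% ± 0.343 and 11.6% ± 0.577, and JUND 15.6% ± 2.22 and 20.8% ± 1.58. The groups were apart for each, with p = 0.1 in the two-sided exact permutation test over libraries, the smallest p that 3 against 3 allows. JUND thus took a larger share with no measurable change of its own level. The summed level of the 3 genes fell by 26.0%, from 1775 ± 168 to 1314 ± 59.2 normalized counts per kb (exact permutation p = 0.1). Within the 4 FOS genes, FOSL1 was 14.4% ± 4.02 and 31.8% ± 0.304, FOSL2 45.8% ± 4.12 and 31.4% ± 4.86, FOSB 18.1% ± 3.10 and 9.66% ± 1.48 (exact permutation p = 0.1 each) and FOS 21.7% ± 1.81 and 27.1% ± 4.43 (exact permutation p = 0.2). Their summed level was 50.8 ± 4.84 and 49.6 ± 5.98 normalized counts per kb (exact permutation p = 0.8). The design cannot reach a p of 0.05 in these tests.

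**Figure D3:**
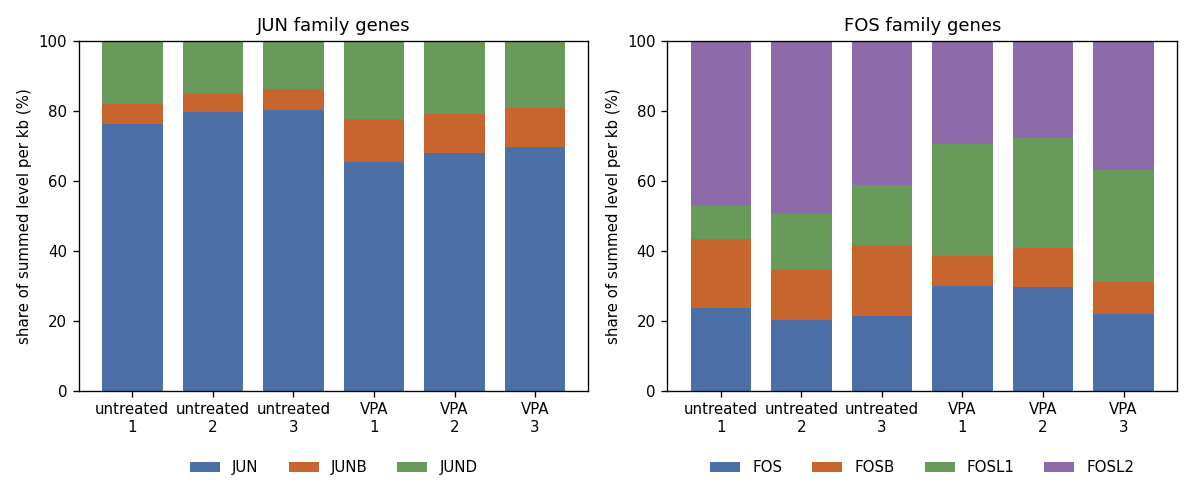
Share (%) of each gene in the summed level per kb of the JUN family (left) and the FOS family (right), with 1 bar per library. JUN takes 76.0% to 80.3% of its family in untreated and 65.3% to 69.6% in VPA-treated libraries, and FOSL1 takes 9.76% to 17.2% and then 31.4% to 32.0% of the FOS family.

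Beside these 10 genes, the other leucine zipper partners of AP-1 were mixed. Of 17 partner genes, 16 were tested, 4 were higher and 6 lower past the adjusted p and 1 was called up. The shares of all tested genes were 32.9%, 30.0% and 12.0%, and the list median was -0.07. With ribosomal protein scaling 8 were higher, 4 lower and 3 called up. MAFA, a MAF factor known from pancreatic beta cells, rose from 29.6 to 122 normalized counts (log2 fold change 2.03, adjusted p = 2.48e-10, edgeR) and was the partner called up. BATF3, a JUN partner in dendritic cells and the next tested gene after ATF3 on chromosome 1, rose from 126 to 241. ATF1, a CREB family factor, fell from 609 to 411 (log2 fold change -0.57, adjusted p = 9.57e-08, edgeR), and MAF, a large MAF factor gene, fell by 0.48 on the log2 scale.

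Of 35 other immediate early genes, 32 were tested, 13 were higher, 7 lower and 2 called up. The shares of all tested genes were 32.9%, 30.0% and 12.0%, and the median log2 fold change of the list was 0.28. With ribosomal protein scaling 24 were higher, 2 lower and 5 called up, with library totals 16 were higher and 4 lower, and with at least 10 counts in every library 1 was called up. EGR2, the EGR gene known from hindbrain and myelin formation, was counted 10 times in all untreated and 71 times in all VPA-treated libraries. Its log2 fold change was 2.66 (SE 0.41, adjusted p = 7.23e-06, edgeR), with a ratio of counts of 6.53 (95% interval 3.35 to 14.2, counting error only). It passed the filter through the VPA-treated libraries only, and without untreated library 2 its log2 fold change was 3.36. CSRNP1, an AXIN1-induced nuclear protein gene, rose from 176 to 388 normalized counts (log2 fold change 1.14, adjusted p = 2.72e-10, edgeR). Among serum-induced genes, the orphan nuclear receptors NR4A1 and NR4A2 (0.38 and 0.48), the matricellular gene CCN1 (0.57) and the ERK phosphatase gene DUSP5 (0.91) were higher on the log2 scale. In the same list DUSP1 (-0.37), a phosphatase of p38 and JNK, the survival gene MCL1 (-0.47), MYC (-0.17, but 0.10 with ribosomal protein scaling) and IER5 (-0.38) were lower. DUSP1 and IER5 lost their calls under that scaling (adjusted p = 0.232 and 0.0700, edgeR), and NR4A2 in DESeq2 (adjusted p = 0.0622). EGR4 was at 0 in untreated libraries, with 2 counts in VPA-treated ones, and NPAS4, a neuronal activity gene, had 0 and 12 counts. Both had too few counts to be tested.

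Genes that act upstream of immediate early transcription moved in both directions. Of 25 listed, 24 were tested, 7 were higher and 9 lower, against 32.9% and 30.0% of all tested genes. Each of the 24 changed by less than 1 on the log2 scale, with a list median of -0.05. Thus 0 were called up and 0 down, against 12.0% and 0.503% of all tested genes. The balance turned with the scaling, to 11 higher and 6 lower with library totals and to 15 higher and 3 lower with ribosomal protein scaling, under which ELK3 was at 1.07 and called up. ELK3, a ternary complex factor that binds beside SRF, rose from 342 to 595 normalized counts (log2 fold change 0.80, adjusted p = 7.72e-10, edgeR). RPS6KA2, which codes for the ERK-activated kinase RSK3, rose from 572 to 894 (0.65, adjusted p = 8.59e-10, edgeR). SRF itself was at 2428 and 2027 (-0.26, adjusted p = 8.82e-05, edgeR, but 0.012 with ribosomal protein scaling). MAP2K7, which codes for the JNK kinase MKK7, and RPS6KA4, which codes for the histone H3 kinase MSK2, were lower by 0.60 and 0.64 on the log2 scale. ELK1 is listed at 0 in every library. The annotation used in the counting is not given, so an effect of the counting and absence of the RNA cannot be told apart here.

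The corepressors of the EGR proteins both rose. NAB2, itself known to be induced by EGR1, went from 278 to 599 normalized counts (log2 fold change 1.11, adjusted p = 3.53e-11, edgeR), and NAB1 from 811 to 907 (0.16, adjusted p = 0.0168, edgeR), a call that was lost in DESeq2 (adjusted p = 0.129). Of the 10 textbook EGR targets listed, 8 were tested, 7 were higher and 1 did not pass, and 5 were called up. Of all tested genes, 32.9% were higher and 12.0% called up, and the list median log2 fold change was 1.11. The list, which holds NAB2 again, was chosen with earlier results of these data known, so its counts are a description only. PDGFB and CD44 had fewer than 10 counts in some or all untreated libraries, and with at least 10 counts in every library 3 were called up. TGFB1 rose from 410 to 1091 normalized counts (1.41, adjusted p = 5.18e-15, edgeR), the matrix gene FN1 from 1998 to 4307 (1.11, adjusted p = 3.31e-15, edgeR) and PDGFA from 33.4 to 51.5 (0.62, a call lost in DESeq2, adjusted p = 0.0736). PDGFB went from 3 counts in all untreated libraries, each of them in untreated library 3, to 64 in all VPA-treated libraries, a ratio of 19.6 (95% interval 6.42 to 97.6, counting error only).

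Of the 21 textbook AP-1 targets, 12 were tested, 8 were higher, 3 lower and 5 called up. The shares of all tested genes were 32.9%, 30.0% and 12.0%, and the list median was 0.43 on the log2 scale. With library totals 1 was lower and 9 higher, with ribosomal protein scaling 0 were lower and 9 higher by edgeR, and with at least 10 counts in every library 3 were called up. MMP2, a gelatinase, rose from 60.9 to 565 normalized counts (log2 fold change 3.21, adjusted p = 1.31e-16, edgeR), PLAU, the urokinase gene, from 15.0 to 66.2 (2.14) and the adhesion receptor gene CD44 from 10.8 to 33.3 (1.61). AREG, an EGF receptor ligand gene, had 14 and 53 counts in all (1.77), and the cyclin gene CCND1 was at 1246 and 1527 normalized counts (0.29). CD44 and AREG had a minimum of 10 counts throughout the VPA-treated group only and passed the filter through that group. The collagenase and stromelysin genes MMP1 and MMP3, standard AP-1 targets in fibroblasts, had 0 counts in every library. TGFB1 and CD44 stand in both target lists, and NAB2 in 2 lists. The targets were listed from general knowledge of the factors and not from binding in HEK293T cells.

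Of 11 stress genes that are usually induced along with ATF3, 6 were lower, 1 was higher and 4 did not pass. Of all tested genes, 30.0% were lower and 32.9% higher, and the median log2 fold change of the list was -0.26. ATF5, a factor induced through ATF4, fell from 413 to 142 normalized counts (log2 fold change -1.54, adjusted p = 5.94e-13, edgeR) and was the gene called down among the pathway lists. TRIB3, the gene that was higher, rose from 432 to 558 normalized counts (log2 fold change 0.37, adjusted p = 0.000176, edgeR). DDIT3 and CHAC1 were among those that did not pass (adjusted p = 0.189 and 0.227, edgeR). With ribosomal protein scaling 1 of the 11 stayed lower and 2 were higher. SESN2 and CEBPG, stress genes downstream of ATF4, were each lower by 0.36 on the log2 scale (adjusted p = 3.31e-07 and 9.68e-07, edgeR), calls that were lost with ribosomal protein scaling (0.0857 and 0.107).

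**Figure D4:**
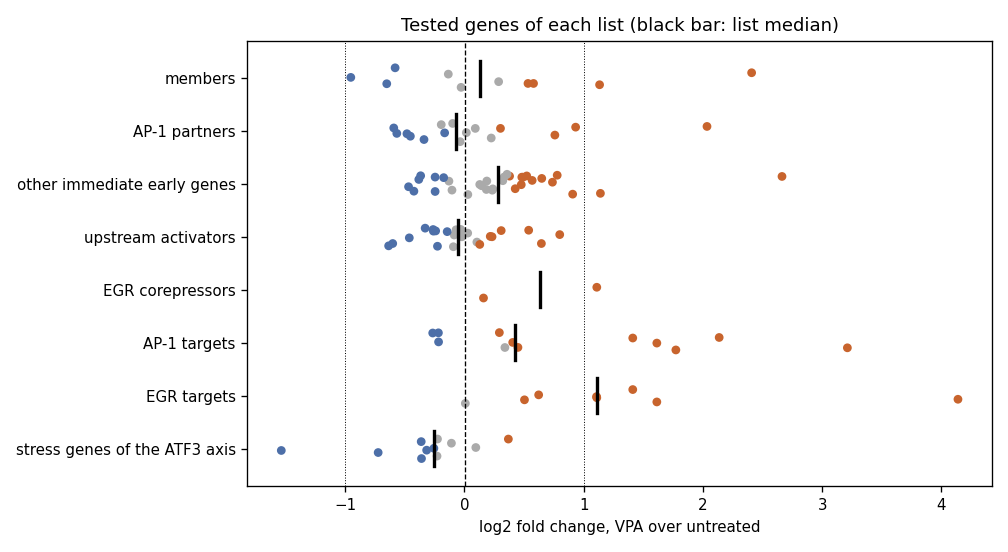
Log2 fold change of every tested gene of each list (points) with the list median (black bar), with the median of all tested genes as a dashed line. Orange and blue points were higher and lower at an adjusted p of 0.05, grey points did not pass, and dotted lines mark a change of 1 in size. The 10 genes run from -0.95 to 2.41, and the list medians run from -0.26 (stress genes) to 1.11 (EGR targets).

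The nearest tested genes on either side of the 10 moved in either direction. They lay 414 to 347885 bases away, so that many are not close neighbours. RTN2, the nearest tested gene after FOSB, had a log2 fold change of 1.12 (adjusted p = 1.03e-10, edgeR) where FOSB fell, and PRDX2, after JUNB, had -0.33 (adjusted p = 4.14e-07, edgeR) where JUNB rose. POLR1G, before FOSB, fell as FOSB did (-0.56, adjusted p = 8.71e-10, edgeR). RHOBTB2, 293937 bases after EGR3, rose as EGR3 did (0.48, adjusted p = 3.86e-06, edgeR), and BIN3, 18511 bases before EGR3, fell (-0.28, adjusted p = 0.00201, edgeR). Next to FOSL1, CCDC85B (414 bases away) and C11orf68 were at -0.30 and -0.47, while FOSL1 rose. REEP2, before EGR1, rose by 1.20 on the log2 scale (adjusted p = 3.38e-14, edgeR). MYSM1, before JUN, did not pass (-0.06, adjusted p = 0.227, edgeR).

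Of the 10 genes, VPA-treated library 1 lay above its group mean in 9, and the other VPA-treated libraries in 2 each, whereas the untreated libraries lay above theirs in 6, 4 and 5. The same was not counted over all tested genes, so these counts are no result about the 10. Reads off any gene were 7.64%, 7.18% and 6.80% in untreated libraries 1 to 3 and 7.69%, 7.53% and 7.40% in the VPA-treated ones, a difference whose part in the results was not tested. Without VPA-treated library 1, JUN, JUNB, FOSL1, FOSL2, FOSB and EGR3 kept their direction and an adjusted p under 0.05.

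**Figure D5:**
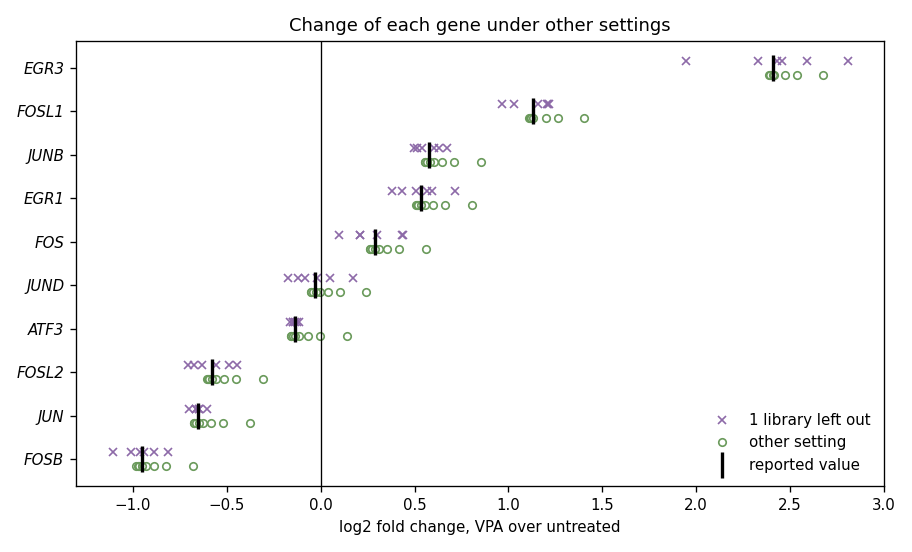
Log2 fold change of each gene as reported (black bars), with 1 library left out (crosses) and under the other settings (circles). JUN stays between -0.70 and -0.38 and EGR3 between 1.95 and 2.81, whereas JUND, between -0.17 and 0.24, and ATF3, between -0.16 and 0.14, cross 0.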

How the data were processed

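RNA-seq of HEK293T cells was analysed in 3 untreated and 3 VPA-treated libraries (1 mM, 1 day). The authors filtered reads in SOAPnuke, mapped them with STAR (hg38) and counted them in htseq-count (STAR 2.7.10b and HTSeq 2.0.1 in the submitters' processing notes). The deposited values are raw counts per gene, without normalization. The annotation and strand setting of the counting are not given in the sources used here. The 5 summary lines, 11.8% to 12.7% of the counts, were left out.

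Counts were tested with edgeR 4.0.16 (R 4.3.3): TMM, filterByExpr (count minimum 10), robust quasi-likelihood fit, group as the only term, prior count 0.125, Benjamini-Hochberg adjustment. Calls use an adjusted p under 0.05 and, where stated, a log2 fold change of 1 or more in either direction. SE is the log2 fold change over the root of F. Replicates differed by more than sampling noise. The biological coefficient of variation was 3.83%, and precision is limited by counting for genes such as EGR3 and FOSL1. Coordinates and promoters are from RefSeq on GRCh38.p14, and transcript lengths from GENCODE 44.

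The genes and lists were chosen with earlier results of these data known. From each list, up to 5 genes past both thresholds per direction were named by smallest adjusted p, or 2 past the adjusted p alone where fewer than 2 passed. NR4A1, NR4A2, CCN1, DUSP5, DUSP1, MCL1, MYC, IER5, SRF, MAP2K7, RPS6KA4, PDGFA, CCND1, MAF, EGR4, NPAS4, ELK1, MMP1, MMP3, TRIB3, DDIT3 and CHAC1 were named after their values were seen. Alternatives were DESeq2 1.42.0, other scalings and filters, glmTreat, a replicate block and leaving out each library.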

Additional observations from a re-analysis of the deposited data

How the results depend on the processing

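The directions of FOSB, FOSL1, FOSL2, JUN, JUNB, EGR1 and EGR3 were the same under every alternative run. Scaling by ribosomal protein genes moved the median over all genes from 0.01 to 0.28 (log2), and library totals moved it to 0.14. JUND was then at 0.24 and 0.10, each under that shift, and it was at 0.037 with upper quartile scaling. With ribosomal protein scaling ATF3 was at 0.14, MYC at 0.10 and SRF at 0.012, FOS passed (0.56, adjusted p = 0.0431, edgeR) and FOSL2 did not (-0.31, adjusted p = 0.0598, edgeR). In all tested genes that scaling gave 9309 higher and 841 lower, library totals 6713 and 2372, upper quartile 5810 and 3413, and TMM 5037 and 4591. In the lists of related genes together it gave 17 called up (11 with TMM), 65 higher (39) and 10 lower (31).

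With at least 10 counts in every library FOSL1 and EGR3 were not tested, which left 0 of the 10 genes called up and 2 higher, and 7 genes of the lists called up. With the fold threshold inside the test (glmTreat) 1 of the 10 was called up. Leaving out 1 library in turn gave 1 to 2 called up and 0 to 1 called down: FOSL1 was at 0.97 without untreated library 1, and FOSB was past -1 without untreated library 2 or VPA-treated library 2. JUND ranged from -0.17 to 0.17, with 0.05 without VPA-treated library 3. The causes were not tested.

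With the replicate block, 2 of the 10 were called up, 0 called down, 4 higher and 4 lower, ATF3 being added (adjusted p = 0.0276, edgeR), and no other call of the 10 changed. Whether the numbers pair the libraries is not settled. Deviations of same-numbered libraries correlated at 0.126, 0.018 and 0.071 across genes, each the highest for its VPA-treated library, only just so for number 2. Untreated library 2 correlated more with VPA-treated library 3 (0.031) than with its own number. Of all tested genes, 5357 were higher and 5100 lower with the block, and 5037 and 4591 without it. Low counts limit FOS, FOSB, FOSL1, EGR1 and EGR3.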
